A study of Mus musculus with 10 samples.

Results

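Immediate early genes were followed in quadriceps muscle taken from 10 untreated mice. Egr1, Fos, Fosb, Jun, Junb, Atf3, Ier2 and Myc were looked up by symbol in the gene annotation of the array, and the choice used their class, not their values. Of these 8 genes, 6 were found (Egr1, Fosb, Junb, Atf3, Ier2 and Myc), each as 1 oligonucleotide spotted in duplicate, which makes 12 of the 15552 spots and 6 of the 7697 features tested. Fos and Jun were not found by symbol, accession or gene identifier.

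The mice were wild-type males, 2 from each of 5 inbred strains: CBA (CBA/CaOlaHsd), BALB (BALB/cOlaHsd), BL6 (C57Bl/6JOlaHsd), DBA (DBA/2OlaHsd) and BL10 (C57Bl/10ScSnOlaHsd). They arrived at 6 weeks of age, were killed by cervical dislocation at 8 weeks, and the m. quadriceps femoris was snap-frozen. A mouse is named here by its strain and its number in the sample labels, which only tells the 2 mice of a strain apart. Each array set a mouse labelled with Cy5 against a mouse of another strain labelled with Cy3, so that every value is a ratio of 2 mice and not a level, and markers of the tissue can be read only as ratios too. Of the 10 arrays, 2 held the same value at all 15552 spots although their labels name different mice (BALB 1 with CBA 2, and CBA 1 with BL6 2), and both were left out. The 8 arrays used join CBA 1, BL10 1, BALB 2 and BL6 2 in a chain of 3 arrays, called the small loop, and CBA 2, BL10 2, DBA 1, BL6 1, DBA 2 and BALB 1 in a chain of 5 arrays, called the large loop. CBA 1, CBA 2, BL6 2 and BALB 1, at the ends of the chains, were each left on 1 array.

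Immediate early genes are transcribed within minutes of a stimulus, without new protein synthesis, because the transcription factors that drive them (SRF with its partners, and CREB and ATF proteins) are already present in the cell and are switched on by phosphorylation. Their transcripts are short-lived. In skeletal muscle they are known to respond to contraction, stretch, injury and stress, so that a stimulus shortly before death can move many of them in the same animal. The comparisons below address whether the 6 genes varied together from mouse to mouse, and whether strains differed.

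Promoters are shown for the 3 genes that are both on the array and in the RefSeq promoter table (build GRCm38.p6), all of the bZIP class: Atf3, which followed Egr1 over the arrays, and Fosb and Junb, which did not. Egr1, Ier2 and Myc are only named, and Fos and Jun, which have no values here, are not shown. Each sequence is the 250 bases before the start site, and capitals mark TGACG on either strand, the core of the site bound by CREB and ATF proteins.
Atf3, chr1:191183334-191183583, minus strand: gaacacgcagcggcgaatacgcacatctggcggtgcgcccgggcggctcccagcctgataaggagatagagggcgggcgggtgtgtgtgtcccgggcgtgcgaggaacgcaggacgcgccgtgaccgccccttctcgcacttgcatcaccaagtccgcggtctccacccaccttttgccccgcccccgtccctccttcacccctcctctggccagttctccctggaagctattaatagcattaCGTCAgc
Fosb, chr7:19310046-19310295, minus strand: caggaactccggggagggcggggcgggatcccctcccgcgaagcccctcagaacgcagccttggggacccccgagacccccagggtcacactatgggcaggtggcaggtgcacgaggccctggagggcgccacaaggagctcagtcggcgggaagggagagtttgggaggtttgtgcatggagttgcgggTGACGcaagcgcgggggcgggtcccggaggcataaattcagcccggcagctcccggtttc
Junb, chr8:84978749-84978998, minus strand: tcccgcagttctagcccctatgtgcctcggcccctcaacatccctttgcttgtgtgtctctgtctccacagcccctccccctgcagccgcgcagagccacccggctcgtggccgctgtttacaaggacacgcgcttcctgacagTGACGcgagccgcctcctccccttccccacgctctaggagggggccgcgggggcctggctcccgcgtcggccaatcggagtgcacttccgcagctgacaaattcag
Each of the 3 windows held TGACG once, beginning 7 bases before the start site in Atf3 (read on the other strand, as CGTCA), 60 before it in Fosb and 106 before it in Junb. Of 32851 promoter windows of this length in the table, 5836 (17.8%) held TGACG on either strand. The CArG box, the site of SRF and the only other motif searched, was in 482 windows (1.47%) and in none of these 3. A match is a run of letters and not a measured site.

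The authors' ratios were converted to log2 and centred on the median of each array. Over the 8 arrays, the SD of the ratios of an array was 0.347 to 0.559, the 2 spots of an oligonucleotide differed with an SD of 0.197 to 0.465, and they correlated across features at r of 0.645 to 0.853. The gene-wise dye effect, the part of the ratio that stays with the dye whichever mouse carries it, had a median size of 0.27 over all features, against a median strain range (the highest minus the lowest strain) of 0.45. A bulk ratio cannot tell fewer cells of a type from less RNA per cell.

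Egr1 (NM_007913), a zinc finger transcription factor induced by growth factors, stretch and contraction, varied most of the 6 genes over the arrays. Its log2 ratio of Cy5 over Cy3 was −1.06 for DBA 1 against BL6 1, −0.75 for BL10 1 against BALB 2, −0.67 for BALB 2 against BL6 2, −0.58 for BL10 2 against DBA 1, −0.34 for CBA 2 against BL10 2, −0.29 for CBA 1 against BL10 1, −0.27 for DBA 2 against BALB 1 and 0.13 for BL6 1 against DBA 2. The array with BL6 1 in Cy5 was therefore the highest and the array with the same mouse in Cy3 the lowest, a 2.28-fold range of ratios. BL6 1 changed dye between these 2 arrays, so that this range is not a fold difference between mice. The SD over the arrays was 0.363, larger than in 85.0% of features, and the 2 spots of the gene followed each other at r = 0.819 over the 8 arrays. After the dye effect of −0.34 (SE 0.085) was removed, BL6 was the higher mouse on all 3 of its arrays.

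Fosb (NM_008036) and Junb (NM_008416) encode subunits of AP-1, a dimer of Fos and Jun family proteins. For Fosb the log2 ratio was −0.43 for DBA 2 against BALB 1, −0.47 for CBA 1 against BL10 1, −0.50 for BL10 1 against BALB 2, −0.84 for CBA 2 against BL10 2, −0.36 for DBA 1 against BL6 1, −0.59 for BL10 2 against DBA 1, −0.75 for BL6 1 against DBA 2 and −0.79 for BALB 2 against BL6 2. All 8 ratios were below 0 whichever strain carried Cy5, and the dye effect of −0.61 (SE 0.088) was larger in size than in 88.1% of features. What remained was small: the SD over arrays of 0.182 was larger than in only 25.6% of features, although the 2 spots of Fosb followed each other at r = 0.779.

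For Junb, in the same order of arrays, the log2 ratios were −0.79, −0.63, −0.68, −0.53, −0.16, −0.85, −0.28 and −0.95. They too were below 0 on all 8 arrays, with a dye effect of −0.49 (SE 0.12). The value for DBA 1 against BL6 1 is the mean of spots at 0.58 and −0.93, and over the arrays the 2 spots of Junb ran against each other at r = −0.299. The array-to-array pattern of Junb is thus not repeated by its own duplicate.

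Atf3 (NM_007498), a bZIP protein of the ATF and CREB family induced by many kinds of cellular stress, had log2 ratios of 0.65 for DBA 2 against BALB 1, 0.36 for CBA 1 against BL10 1, 0.12 for BL10 1 against BALB 2, 0.22 for CBA 2 against BL10 2, −0.06 for DBA 1 against BL6 1, 0.12 for BL10 2 against DBA 1, 0.41 for BL6 1 against DBA 2 and 0.19 for BALB 2 against BL6 2. It was above 0 on 7 of 8 arrays, with a dye effect of 0.32 (SE 0.092), and the exception was DBA 1 against BL6 1. Its 2 spots gave the closest match of the 6 genes, r = 0.880, and never differed by more than 0.20. The SD over arrays was 0.220, close to the median feature (0.234).

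Ier2 (NM_010499), a nuclear protein of the rapid response to growth factors, was above 0 on all 8 arrays, between 0.11 for CBA 1 against BL10 1 and 0.52 for DBA 2 against BALB 1. Its dye effect was 0.35 (SE 0.078). Only 8.24% of features varied less over the arrays (SD 0.136), and its 2 spots correlated at r = 0.162. Myc (NM_010849), a basic helix-loop-helix transcription factor of cell growth and ribosome production, lay between −0.16 for CBA 2 against BL10 2 and 0.55 for DBA 1 against BL6 1, and was above 0 on 4 of 8 arrays. The 2 spots of Myc correlated at r = 0.0846. Of the 6 genes, then, Egr1, Fosb and Atf3 had spots that followed each other over the arrays at r of 0.779 or more, whereas Ier2, Myc and Junb did not. The median own-spot correlation was 0.471, against 0.577 over all features.

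**Figure D1:**
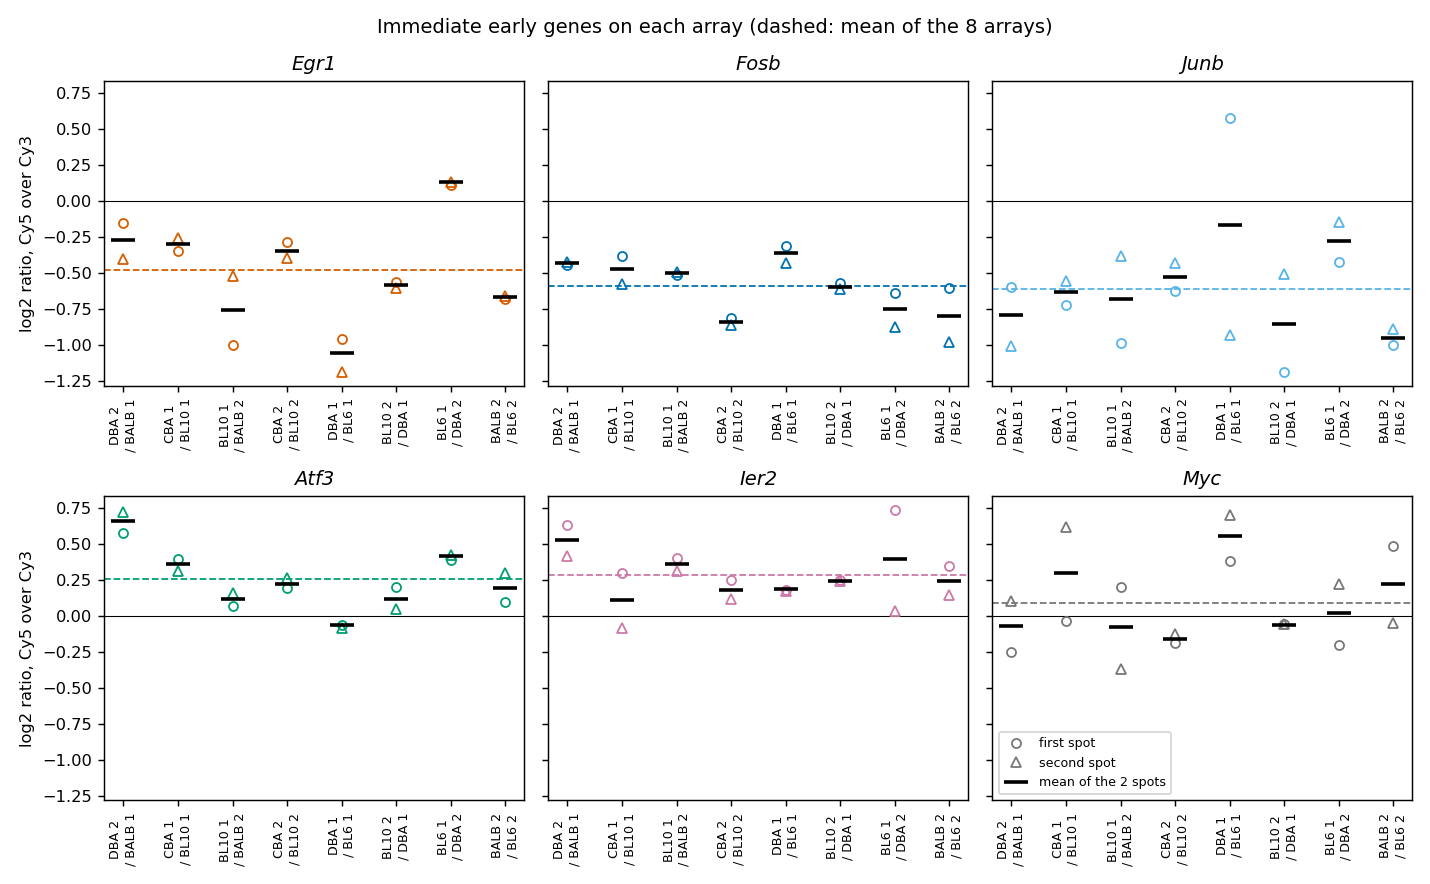
Log2 ratio of Cy5 over Cy3 (y axis) on each of the 8 arrays (x axis, Cy5 mouse over Cy3 mouse) for the 6 genes; circles and triangles are the 2 spots, bars their mean, and the dashed line the mean of the 8 arrays. Fosb and Junb lie below 0 and Ier2 above 0 on all 8 arrays, and the spots of Junb lie farthest apart, at 0.58 and −0.93, for DBA 1 against BL6 1.

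Strain levels were estimated in limma relative to the mean of the 5 strains, with a dye term for each gene and the mouse as the replicate. Egr1 stood at 0.52 (SE 0.13) in BL6, 0.07 (SE 0.12) in BALB, −0.01 (SE 0.0999) in DBA, −0.28 (SE 0.18) in CBA and −0.30 (SE 0.10) in BL10. The gap from BL6 to BALB exceeded the sum of their SEs, and the other neighbours in this order (BALB and DBA, DBA and CBA, CBA and BL10) lay within it. The estimate of BL6 minus BL10 was 0.82 (SE 0.20, 1.77-fold), against 0.42 with all 10 arrays and 1.27 with no dye term, and the strain difference had an adjusted p of 0.259 in limma's moderated F, which did not pass the FDR of 10%.

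None of the other 5 genes passed the threshold either. Atf3 ranged from −0.20 in CBA to 0.27 in BL6, a difference of 0.48 (SE 0.31, adjusted p = 0.578 in limma), and Ier2 from −0.22 in CBA to 0.16 in BL6, a difference of 0.38 (SE 0.26, adjusted p = 0.685). Junb differed by 0.47 (SE 0.41, adjusted p = 0.872) between the same strains. BL6 minus CBA was below 0 for Atf3 and Ier2 with no dye term (−0.29 and −0.43) and with all 10 arrays (−0.0158 and −0.0507), and for Junb with the second spot alone (−0.0456). CBA was also the least precise strain, because its mice sit on 1 array each, both times in Cy5. Myc lay between −0.15 in CBA and 0.16 in BALB (difference 0.30, SE 0.33, adjusted p = 0.737), and Fosb between −0.13 in BALB and 0.11 in DBA (difference 0.24, SE 0.15, adjusted p = 0.774). The differences of Ier2, Myc and Fosb were below the median of 0.45 over all features.

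Of the 6 genes, 1 (Egr1) had an unadjusted p under 0.05 between strains, against 1080 of 7697 features (14.0%), and 0 passed the FDR of 10%, against 10 features (0.130%). A share of 1 in 6 is close to that of all features. The count at an unadjusted p under 0.05 was 0 without BL10 1 or BL10 2, in fits that counted 398 and 467 of the 7697 features. It was 2 without DBA 1 and 3 without BALB 2, in fits that counted 3602 and 3763 features. In the contrast of each strain with the mean of the other 4, again 0 of the 6 genes passed the FDR of 10% for any strain, against 11 features (0.143%). At an unadjusted p under 0.05, 1 gene was counted for BL6 (15.0% of features) and 1 for BL10 (7.63%), both Egr1, and none for CBA (11.5%), DBA (5.64%) or BALB (11.3%).

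In BL6, Egr1 was 0.65 (SE 0.16) above the mean of the other 4 strains, a 1.57-fold difference with an adjusted p of 0.208 in limma, and in BL10 it was −0.38 (SE 0.13) from the mean of the others, with an adjusted p of 0.641. Without the mouse BALB 2 the BL6 estimate was 0.67 with an adjusted p of 0.0283, and without DBA 1 it was 0.66 with an adjusted p of 0.0229, both in fits with 1 residual degree of freedom in which 1296 and 1719 features passed the FDR of 10%. With all 10 arrays as labelled the estimate was 0.32, and with no dye term 1.01.

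**Figure D2:**
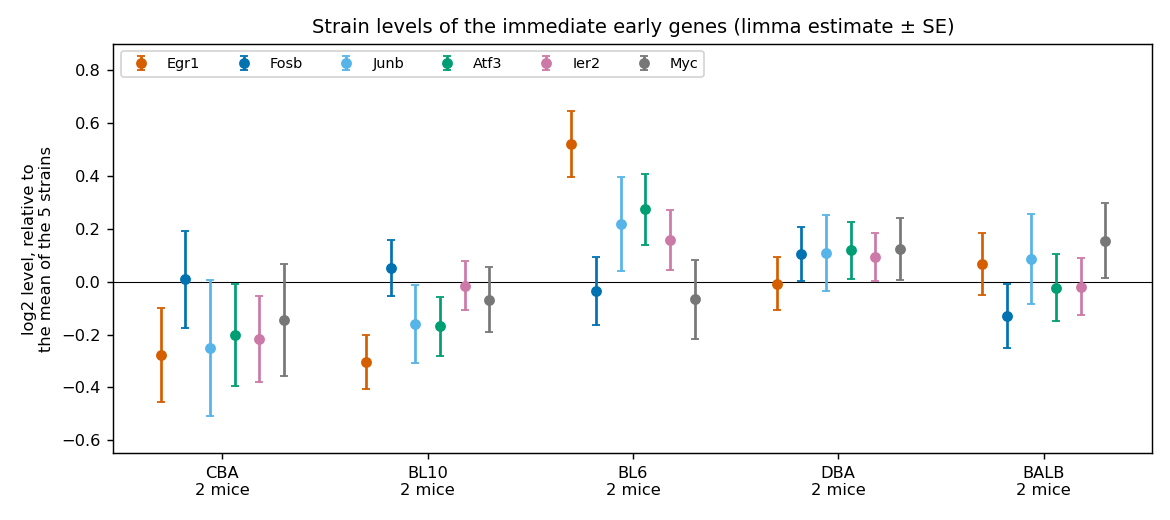
Estimated log2 level of each gene in each strain (x axis, 2 mice a strain) relative to the mean of the 5 strains (y axis); points are limma estimates and bars ± 1 SE. Egr1 in BL6, at 0.52, lies highest, and the bars of the other genes overlap between most strains.

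The comparison of BL6 with DBA can be made free of dye, because BL6 1 was set against DBA 2 in Cy5 and against DBA 1 in Cy3, so that the dye effect drops out of the mean of the 2 arrays. By this measure Egr1 was 0.59 (1.51-fold) higher in BL6 1 than in the mean of both DBA mice, above 99.6% of features, for which the SD was 0.252. Atf3 stood at 0.24, Ier2 at 0.10, Junb at −0.06, Fosb at −0.19 and Myc at −0.27. The genes thus split evenly, with 3 above 0 and 3 below, against 52.6% of all features above 0. Egr1 was the only one of the 6 genes beyond 2 SD of all features.

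A pair of arrays held the same strains in the same dyes, CBA 1 against BL10 1 in the small loop and CBA 2 against BL10 2 in the large loop. Strain and dye drop out of their difference, which holds only mice and arrays. Myc differed by 0.46 between these arrays and Fosb by 0.37, sizes that exceeded those of 95.8% and 92.4% of features. Atf3 differed by 0.14, Egr1 by 0.05, Ier2 by −0.07 and Junb by −0.10, against a median size of 0.125 over all features. Of the 6 genes 4 had the same sign, and 50.5% of all features had that sign. Egr1, which varied most over all arrays, differed least of the 6 genes here.

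Whether the genes moved together was described by Pearson correlations over the 8 arrays, in which a constant dye effect drops out. The arrays share mice, and no test was made. Over the 15 pairs of genes the median r was 0.0333, against 0.0134 over 29618056 pairs of features, and 8 of 15 pairs (53.3%) were positive, against 51.0%. Over the arrays the measured ratios of the 6 genes were therefore about as alike as those of features taken at large. Noise limits this reading, because the own spots of Junb, Myc and Ier2 correlated at only −0.299, 0.0846 and 0.162. Such noise pulls r toward 0 whether or not the genes move together. Among Egr1, Fosb and Atf3, whose spots followed each other, r was 0.790 (Egr1 with Atf3), −0.416 (Egr1 with Fosb) and −0.0428 (Fosb with Atf3). When the first spot of a gene was set against the second spot of its partner, so that no spot was shared, the median was −0.0464. With the 2 spots averaged again and a mouse left out, the median r was −0.403 (without DBA 2) to 0.101 (without BALB 1).

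Single pairs differed widely. Egr1 and Atf3 were the closest, with r = 0.790 and a Spearman rho of 0.952, above 97.0% of all pairs of features. The other pairs with an r over 0.4 were Atf3 with Ier2 (r = 0.609, rho 0.333), Fosb with Myc (r = 0.447, rho 0.452) and Junb with Myc (r = 0.411, rho 0.214). The pairs under −0.4 were Egr1 with Myc (r = −0.480, rho −0.190), Ier2 with Myc (r = −0.477, rho −0.286), Egr1 with Fosb (r = −0.416, rho −0.190) and Atf3 with Myc (r = −0.411, rho −0.190). The AP-1 subunits Fosb and Junb gave r = 0.178, and Egr1 and Junb gave r = 0.0333.

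**Figure D3:**
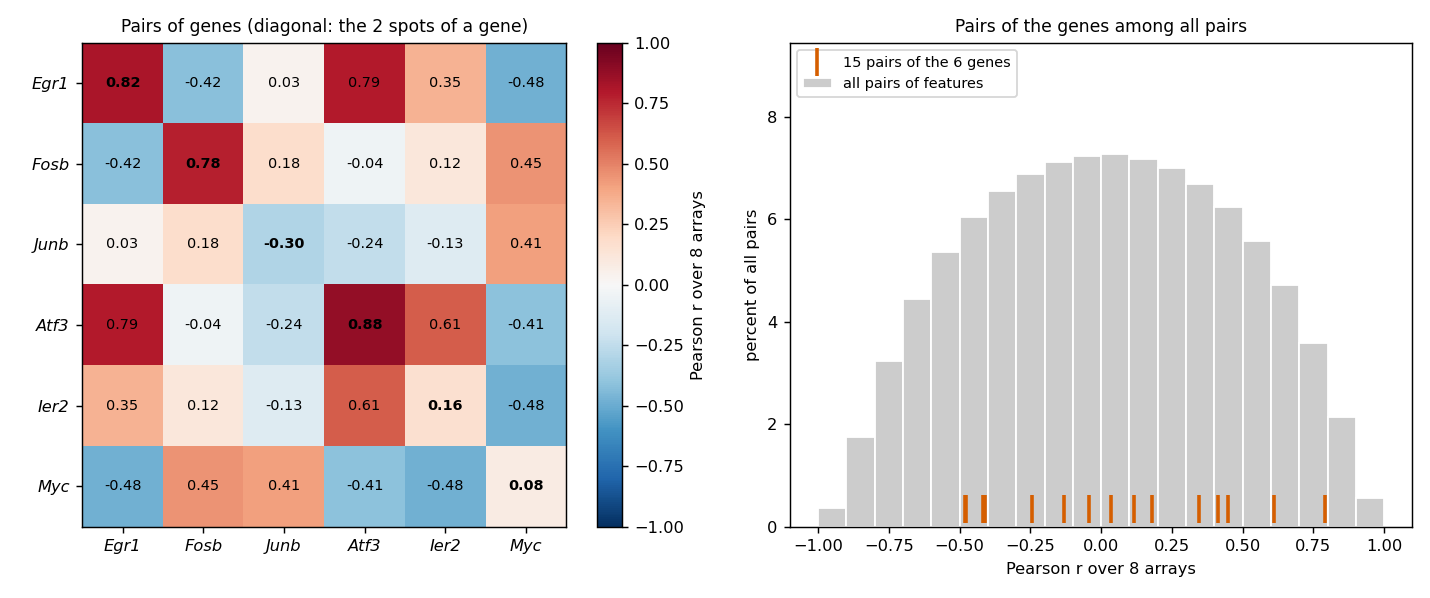
Left, Pearson r over the 8 arrays for each pair of the 6 genes, with the r of the 2 spots of a gene on the diagonal. Right, the 15 pairs (marks) along the distribution of r over all pairs of 7697 features (grey bars, percent of pairs). The marks spread from −0.480 to 0.790 around a median of 0.0333, and the highest is Egr1 with Atf3.

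The pair of Egr1 and Atf3 was the highest of 15 and was singled out after its value was seen. Across spots, with no spot in common, r was 0.725. With 1 array left out at a time r was 0.671 to 0.944, and without the 2 arrays farthest from the median of Egr1, both with BL6 1, it was 0.765 over 6 arrays. Without the 3 arrays that carry a BL6 mouse it was 0.766 over 5 arrays. Both genes were lowest, relative to their own means, for DBA 1 against BL6 1. The highest array of Egr1 was BL6 1 against DBA 2, whereas that of Atf3 was DBA 2 against BALB 1.

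**Figure D4:**
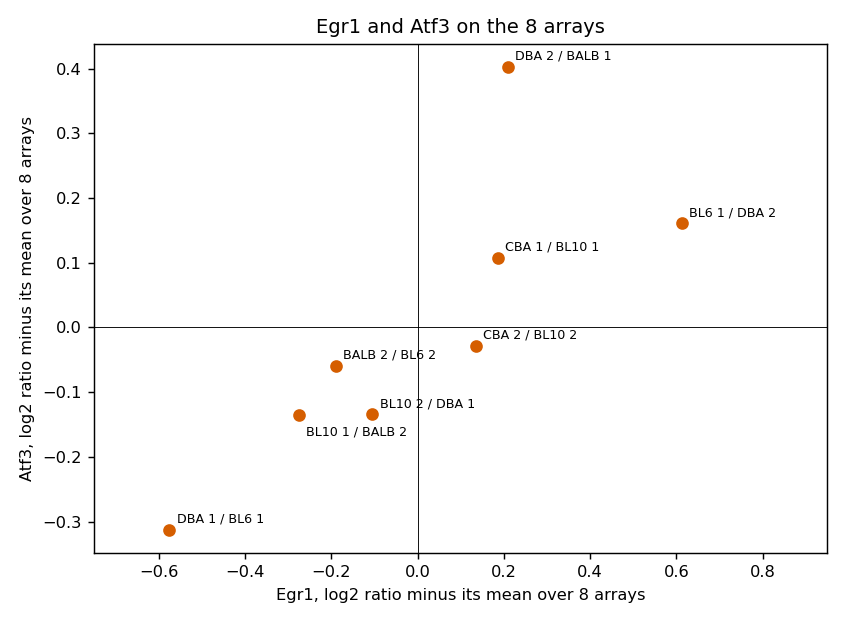
Log2 ratio of Atf3 (y axis) against that of Egr1 (x axis), each minus its mean over the 8 arrays; a point is an array, labelled Cy5 mouse / Cy3 mouse. The points rise together (r = 0.790), and r without both BL6 1 arrays, the outermost points of Egr1, was 0.765.

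Levels of single mice were computed within each loop from the ratios minus the estimated dye effect, relative to the mean of the loop, and a mouse at a chain end rests on 1 ratio. Egr1 stood at 0.44 in BL6 2 and 0.61 in BL6 1, above the other 8 mice, which lay between −0.34 and 0.13. Both BL10 mice (−0.30 and −0.34) and both CBA mice (−0.25 and −0.34) were low. The loops share no mouse and no array, but the dye effect taken from both was estimated in a fit that ties the mice of a strain, so that the likeness of mice of 1 strain is partly built in. With no dye term BL6 1, at 0.78, lay below BALB 1 of the same loop, at 0.92, whereas BL6 2 stood at 0.95 and BALB 2 at 0.28. The CBA mice then stood at −0.77 and −1.21. With all 10 arrays BL6 1 stood at 0.55, whereas BL6 2, at 0.07, was below CBA 1, at 0.11.

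Atf3 stood at 0.19 in BL6 2 and 0.36 in BL6 1, −0.15 and −0.23 in BL10 1 and BL10 2, and −0.11 and −0.33 in CBA 1 and CBA 2. DBA 2, at 0.27, lay above BL6 2. With no dye term Atf3 stood at −0.29 in BL6 2, the lowest mouse of its loop. With all 10 arrays it stood at −0.04 in BL6 2, below CBA 1 at 0.12. BL6 1 stood at 0.20 and 0.31 under these settings. For Junb the BL6 mice did not match, with 0.47 in BL6 2 and −0.02 in BL6 1, and the DBA mice of the same loop stood at 0.31 and −0.23. For Myc the same 2 DBA mice stood at 0.25 and −0.04, and the CBA mice at 0.02 and −0.27.

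Counted by mouse, all 6 genes were above the loop mean in BL6 2 and 0 of 6 in CBA 2, and these are mice on 1 array each. BALB 2 had 5 genes above the mean, DBA 1 and DBA 2 had 4 each, BL6 1 and BALB 1 had 3 each, CBA 1 and BL10 2 had 2 each and BL10 1 had 1. Of the mice on 2 arrays, none had all 6 genes on one side. The median level of the 6 genes was highest in BL6 2, at 0.16, and lowest in CBA 2, at −0.26. The median over all features was 0.04 in BL6 2 and −0.04 in CBA 2, and lay between −0.04 and 0.02 in the other mice. The share of all features above the loop mean was not computed. These levels rest on the same dye estimate. With no dye term, Atf3, Ier2 and Myc were below the loop mean in BL6 2 (−0.29, −0.39 and −0.20). The same genes were then above it in CBA 2 (0.48, 0.62 and 0.10). With all 10 arrays, Atf3 and Ier2 were below it in BL6 2 (−0.04 and −0.10), whereas all 6 genes stayed below it in CBA 2.

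**Figure D5:**
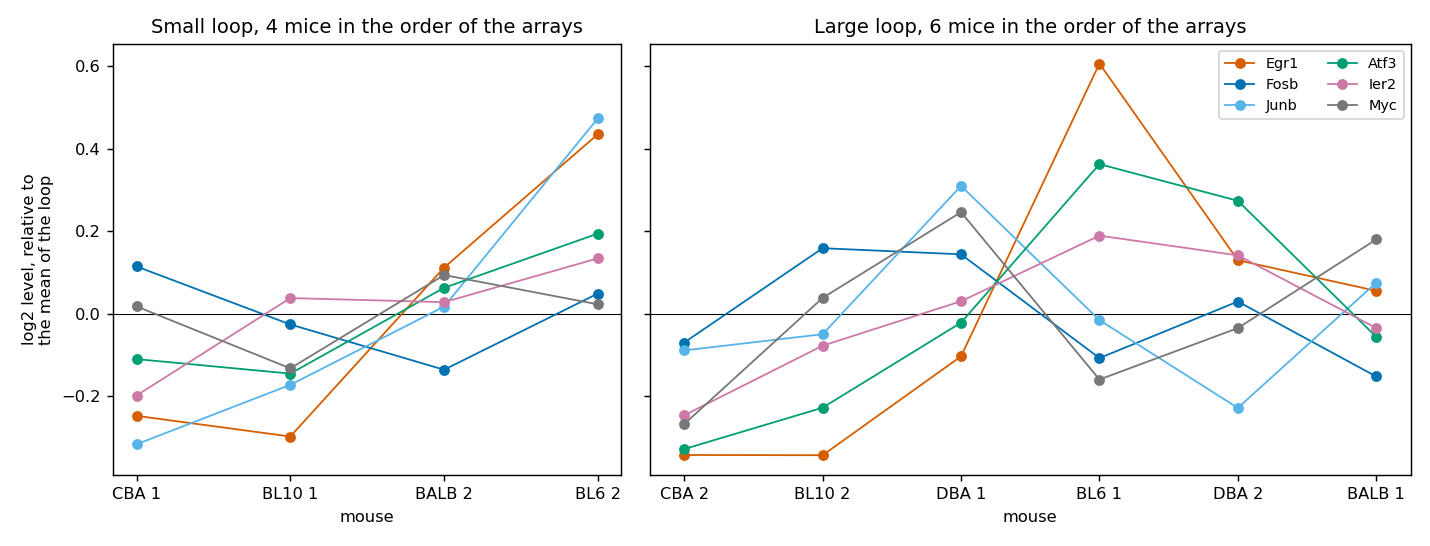
Estimated log2 level (y axis) of the 6 genes in each mouse, relative to the mean of its loop, for the 4 mice of the small loop (left) and the 6 mice of the large loop (right), in the order in which the arrays join them. After removal of the estimated dye effect, the lines of Egr1 and Atf3 run alike and peak at BL6, at 0.44 and 0.61 for Egr1. Those of Fosb and Myc cross them. With no dye term (not drawn) Atf3 was lowest of the small loop in BL6 2, at −0.29, and Egr1 in BL6 1, at 0.78, lay below BALB 1, at 0.92.

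Other immediate early and rapid response genes were compared from a list of 40, of which 34 were on the array with 35 features. Of these features, 4 (11.4%) had an unadjusted p under 0.05 between strains, against 14.0% of all features, and 0 passed the FDR of 10%. The 4 were Rcan1, an inhibitor of calcineurin (adjusted p = 0.154 in limma), Jund, an AP-1 subunit (adjusted p = 0.291), Cebpb (adjusted p = 0.305) and Klf4 (adjusted p = 0.326). BL10 was the highest strain for Rcan1, BALB for Jund and CBA for Cebpb and Klf4, so that none of them had BL6 highest as Egr1 did. The paralogs Egr2 (BL6 −0.17 from the mean of the other 4 strains), Egr3 (0.14) and Egr4 (0.25) stood closer to 0 in BL6 than Egr1.

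In the contrast of BL6, 3 features of that list were above and 1 below at an unadjusted p under 0.05, against 15.0% of all features on either side. The 4 of the 35 in the list had adjusted p of 0.230 to 0.319 in limma and were picked out by their p. Zfp36, an mRNA-destabilising protein of the rapid response, was 0.53 (SE 0.18) above the mean of the other 4, Pim1, a growth-promoting kinase, 0.52 (SE 0.14), and Cyr61, a secreted matrix protein, 0.38 (SE 0.16). Klf4 stood at −0.51 (SE 0.16). Over the whole list the median BL6 contrast was 0.04, equal to that of all features.

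Correlations with Egr1 over the 8 arrays were positive for 20 of the 35 features, with a median r of 0.150, against 56.1% of all features positive. An r over 0.6 was found for 8 features (22.9%, against 17.9% of all features) and an r under −0.6 for 4 of the 35, against 12.4% of all features. The highest were Zfp36 (r = 0.934), Pim1 (0.855), Egr4 (0.820) and Maff (0.802), and the lowest Nr4a2 (−0.798) and Jund (−0.738), chosen after their values were seen. Zfp36 had log2 ratios of −0.47 for DBA 1 against BL6 1 and 0.44 for BL6 1 against DBA 2, which were its lowest and highest arrays as they were for Egr1. Neither share of the list lay far from that of all features.

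Of 31 kinases and transcription factors upstream, 21 were on the array, and 5 of the 21 had an unadjusted p under 0.05 between strains. For this and the lists that follow, the share of all features at that threshold is again 14.0%. The smallest p were found in the kinases Camk2d, Map2k1 and Map2k6 and the transcription factor Atf2 (adjusted p of 0.154 to 0.283 in limma). BALB was the highest strain for all 4. Srf itself, whose protein binds the CArG box, ranged by 0.58 between strains (adjusted p = 0.568 in limma). Of 14 feedback phosphatases and inhibitors, 10 were on the array and 3 had a p under 0.05: Nab1 and Nab2, which encode corepressors of Egr1 (adjusted p = 0.156 and 0.355 in limma), and Socs1, an inhibitor of cytokine signalling (adjusted p = 0.181). Nab1 and Nab2 were lowest in CBA, at −0.65 and −0.39, and stood at −0.12 and −0.10 in BL6 against the mean of the other 4. Of 12 genes in the list of Myc partners, 11 were on the array, and only Mycn, a paralog of Myc, had a p under 0.05 (adjusted p = 0.197 in limma). Mycn ranged from 0.93 in CBA to −0.67 in BL6. None of these features passed the FDR of 10%.

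Corticosteroids are another known part of the response to handling. Of 19 corticosteroid responsive genes 13 were on the array, and 2 had a p under 0.05 between strains, Fkbp5, a cochaperone of the glucocorticoid receptor, and Klf9, a zinc finger factor induced by the receptor, with adjusted p of 0.241 and 0.301 in limma. Both were lowest in BL6, at −0.54 (SE 0.14) and −0.64 (SE 0.22) from the mean of the other 4 strains. In that contrast 2 more features of the list had an unadjusted p under 0.05 on the other side, the transcription factors Foxo1 at 0.64 (SE 0.22) and Foxo3 at 0.42 (SE 0.18), and the median of the list was 0.01. The 13 features thus had 2 above and 2 below in the BL6 contrast, against 15.0% of all features on either side. Of 10 heat shock genes 7 were on the array with 8 features, and 3 features had a p under 0.05, both of Hspa8, a constitutive chaperone, and Hspb1, a small heat shock protein. All 3 were lowest in CBA, and their adjusted p values in limma were 0.197 to 0.341.

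Cell type markers were followed in the same BL6 contrast, as ratios. The 6 of 7 endothelial markers on the array had a median of 0.18, with 1 (Tek) above at an unadjusted p under 0.05, and the 9 of 12 markers of muscle fibres a median of 0.08, with 0 above and 2 below (Tnnt3 and Tnnc2, both at −0.75). The 4 of 6 fibroblast markers, with 5 features, had a median of −0.43, with 1 of the 2 Pdgfra features at 0.49 and Col1a1 and Col3a1 at −0.81 and −1.25. The 8 of 12 blood cell markers had a median of −0.07, with S100a8 (0.35) above and Cd68 (−0.51) below at an unadjusted p under 0.05, and the red cell gene Hba-a1 at −1.02 (SE 0.59) did not reach it. The 5 of 6 satellite cell markers had a median of −0.09, with Cdh15 (0.40) above. The median was 0.14 for 3 of 6 adipocyte markers and −0.004 for 4 of 6 Schwann cell markers. Over all features the median was 0.04, with 645 above and 511 below at an unadjusted p under 0.05. The part of these markers in the level of Egr1 was not tested.

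The mean of the 6 genes, each relative to its own mean, was used as a profile over the arrays. It was highest for BL6 1 against DBA 2 (0.17, with 4 of 6 genes above their own mean) and lowest for BALB 2 against BL6 2 (−0.12, with 1 of 6). BL10 2 against DBA 1 had 0 of 6 genes above. The genes correlated with their own mean at r of 0.166 for Myc to 0.632 for Atf3. Each gene is part of that mean, so that a positive r is partly built in. Of 6745 other named features, 108 correlated with the profile at an r over 0.8 and 27 at an r under −0.8. Among all pairs of features, 2.14% had an r of 0.8 to 0.9 and 0.563% an r of 0.9 to 1. For the same sizes of r below 0 the shares were 1.76% and 0.368%. The features most like the profile were Ank1 (r = 0.974), an ankyrin of the membrane skeleton, Nell2 (0.972), Rbpms (0.953), an RNA-binding protein, Cd8a (0.949) and Zfp185 (0.929). Those most opposed were Prcc (−0.936), Edf1 (−0.906) and B3galt1 (−0.902). None of these 8 features is an immediate early gene of the lists used. They were picked as the extremes of 6745 features ranked by this r, so that their r cannot be weighed against that of the 6 genes.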

How the data were processed

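The authors hybridised labelled cDNA of 10 mice to 10 arrays with 2 dyes, read the spots in GenePix Pro, took off the local background and normalized by variance stabilization (VSN). Each deposited value is the natural log of Cy5 over Cy3 at a spot. That scale was taken from the VSN method and the direction from the dyes in the labels. Flagged spots are not identified, and the values hold no brightness. The precision is limited by the number of arrays, the spread between duplicate spots and the dye estimate.

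Duplicate spots were averaged, 80 features of 1 control oligonucleotide were averaged to 1, and the ratios were converted to log2 and centred on the array median. Single-spot values were centred on the median of that spot set. Of 7776 oligonucleotides, 6831 had 1 symbol, 7 several and 938 none, and 6801 were found in a table of GRCm38.p6. The 7697 features were fitted in limma 3.58.1 (R 4.3.3) with terms for strain and dye. The mouse was the replicate: 1 ratio of animal to array variance, 0.446, was estimated by restricted maximum likelihood. The fit has 3 residual degrees of freedom, and the spread shared across genes adds 6.13. Strains were tested with moderated F and contrasts, adjusted by Benjamini and Hochberg over the 7697 features (FDR of 10%). Separate rearing is not stated for the 2 mice of a strain. Levels of single mice used MASS 7.3.60.0.1, and figures matplotlib 3.10.9. The steps were tested on simulated data.

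The alternatives left out each mouse, the centring, the dye term, the mouse as replicate or the shared spread (an ordinary F test), or used quantile normalization, equal array spreads, the first or the second spot, an FDR of 5%, the identical arrays under both labels or either, or a replicate block. Those for the BL6 contrast of Egr1, and correlations across spots, were added after seeing the data. The genes and lists were chosen with earlier results of these data known. Named genes were all genes found, up to 4 of each other list with the smallest p between strains, and the 5 features most like and 3 most unlike the mean profile. Others are named as chosen by their values.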

Additional observations from a re-analysis of the deposited data

How the results depend on the processing

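The 1 gene with an unadjusted p under 0.05 between strains (Egr1) became 0 with the second spot alone, with an ordinary F test, with all 10 arrays and with the shared values as BL6 2 against CBA 1. With 1 mouse left out the count was 0 to 3, with 0 without BL10 1 or BL10 2, 2 without DBA 1 and 3 without BALB 2, where 398, 467, 3602 and 3763 of 7697 features were counted. The count past the FDR of 10% was 0 to 3: Egr1 without BALB 1 (adjusted p = 0.0388 in limma), Egr1 and Junb without DBA 1 (0.0356 and 0.0923), and Egr1, Junb and Atf3 without BALB 2 (0.0176, 0.0515 and 0.0692). In these fits 1402, 3412 and 3725 of all features passed, and 2, 1 and 1 residual degrees of freedom were left. The fit without DBA 2 has 0 residual degrees of freedom and gave no value. The BL6 contrast of Egr1 was above 0 under all alternatives, at 0.52 (without BALB 1) to 0.95 (without BL6 1) with a mouse left out, and was 0.32, 0.32 and 0.50 with the identical arrays under both labels, as BL6 2 against CBA 1 or as BALB 1 against CBA 2. BL6 minus BL10 of Egr1 was 0.42, 0.42 and 0.62 under these 3 settings.

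The replicate block, a term for the number of the mouse, left the counts at 1 and 0 and put the BL6 contrast of Egr1 at 0.70 (adjusted p = 0.237 in limma). The numbers only name the mice. Over all features the block raised the count past the FDR of 10% from 10 to 57, equal array spreads raised it to 196 and quantile normalization to 106, and none of the 6 genes was among them.

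The median correlation between the genes, 0.0333, was −0.0632 with equal array spreads, −0.0770 with quantile normalization, −0.0980 and −0.137 with the first and the second spot alone, −0.0464 across spots, and −0.403 (without DBA 2) to 0.101 (without BALB 1) with a mouse left out. The 4 genes of 1 sign in the CBA and BL10 arrays stayed 4. BL6 minus CBA reversed for Atf3 and Ier2 with no dye term (−0.29 and −0.43), with all 10 arrays (−0.0158 and −0.0507) and with the shared values as BL6 2 against CBA 1 (−0.0137 and −0.0408), and for Junb with the second spot alone (−0.0456). With a mouse left out, BL6 minus CBA of Junb was −0.53 to 1.01 and BALB minus CBA of Myc −0.56 to 0.93, both lowest without BL6 1. Fosb kept its direction under the 22 alternatives that gave a value. The cause was not tested. Spot brightness is not in the values, so what signal over background limits cannot be given.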
